A study of Mus musculus with 9 samples.

Results

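The proteasome is the protease that degrades ubiquitin-tagged proteins, and its subunits are encoded by the Psm genes. The constitutive proteasome genes were taken as all gene names that start with Psm, a letter from a to g and a number, without the immunoproteasome genes Psmb8, Psmb9 and Psmb10 and without pseudogene names. This rule gave 48 of 41710 gene names in the deposited transcript table. They comprised 14 subunits of the core particle, 17 subunits of the regulatory particle and 17 other genes, which encode activators, an inhibitor, assembly chaperones, tissue-restricted subunits and 2 proteins that share only the name pattern.

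RNA was measured in whole hearts of males of the FVB/N strain that were 8 months old. Tg-RKIP mice (n = 3) carry a transgene for RKIP, the Raf kinase inhibitor protein encoded by Pebp1, under the alpha-MHC promoter, which is active in cardiomyocytes, and they were described with symptoms of heart failure. Tg-GRK2 mice (n = 3) carry a transgene for the G-protein-coupled receptor kinase GRK2, and the promoter of that transgene is not given in the sources used here. Non-transgenic FVB mice of the same age and sex (n = 3) served as controls, and each library came from 1 heart. Founder lines are not given in the sources used here, so it is not known whether a genotype is represented by more than 1 line.

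The proteasome holds a barrel of stacked alpha and beta rings, the core particle, in which Psmb5, Psmb6 and Psmb7 encode the catalytic subunits. The regulatory particle caps the barrel: its base unfolds substrates with a ring of ATPases, and its lid removes the ubiquitin chain. In heart muscle the proteasome turns over sarcomere and signalling proteins. Other caps, the PA28 and PA200 activators, can replace the regulatory particle, and interferon exchanges the catalytic subunits for those of the immunoproteasome.

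The libraries held 25458108 to 33447654 reads. Pebp1 had 8127 to 8380 normalized CPM (counts scaled to depth with TMM factors) in Tg-RKIP against 291 to 299 in FVB, a log2 fold change of 4.81. Grk2 did not pass the test in the Tg-GRK2 hearts (log2 fold change 0.05, edgeR quasi-likelihood adjusted p = 0.354), and this group is referred to by its label, as the hearts labelled Tg-GRK2. Mitochondrially encoded genes took 11.7% ± 0.156 of the reads in Tg-RKIP (SD, n = 3), 22.6% ± 0.299 in the hearts labelled Tg-GRK2 and 23.1% ± 0.158 in FVB. Cardiomyocyte markers were present in all libraries, 9 of 9 genes, with a summed level of 70320 to 71664 TPM in Tg-RKIP, 57079 to 58743 in the hearts labelled Tg-GRK2 and 59428 to 59742 in FVB. Summed fibroblast markers were at 2503 to 2530, 1012 to 1023 and 894 to 927 TPM, in the same order, and macrophage and leukocyte markers at 128 to 133, 60.7 to 63.1 and 51.1 to 51.6 TPM, with all 6 and all 9 of these genes detected in every group and higher in Tg-RKIP than in FVB. Adipocyte markers summed to 69.4 to 72.6 TPM in Tg-RKIP, 18.0 to 20.6 in the hearts labelled Tg-GRK2 and 7.83 to 9.62 in FVB. Airway markers were at 55.2 to 57.6, 138 to 146 and 0 to 0.0184 TPM, and Scgb1a1, Scgb3a2 and Sftpc had 0 reads in FVB. Of the 9 cardiomyocyte markers, 1 rose and 7 fell in Tg-RKIP against FVB on the TMM scale (edgeR adjusted p under 0.05). On that scale 36.8% of all tested genes rose and 37.1% fell. Scaled to library size alone, 3 markers were higher and 6 lower, where 62.6% and 17.1% of all genes were called. With limma on log2(TPM + 0.1) the counts were also 3 and 6, where 66.3% and 14.6% were called. In bulk tissue, fewer cells of a type and less RNA per cell cannot be told apart, and the part of these marker differences in the proteasome results was not tested.

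Since the promoters of proteasome genes are studied for shared control elements, the windows from 250 bases before to 50 bases after the start site were searched in RefSeq on GRCm38.p6 for 40 of the 48 genes that matched by symbol. The letters CCGGAAG, a core of ETS-family sites, were present on either strand in 16 of 40 genes, or 40%, compared with 9.93% of all 27025 genes with a window and 18.3% of those that were tested for expression here. Of the matched regulatory particle genes, 9 of 14 held these letters, or 64.3%, and of the matched core particle genes 1 of 11, or 9.09%. The letters TGACNNNGC, the core of the antioxidant response element read by NRF1 and NRF2, were found in 6 of 40 genes, or 15%, and in 14.0% of all genes, and the CCAAT box in 37.5% and 41.1%. A match describes letters and not binding. The following upstream stretches, 5′ to 3′ on the strand of the gene, show the ETS letters in capitals for 5 regulatory particle genes and for Psme4, an activator gene whose level differed most among genes without a near-identical copy, and the antioxidant letters in capitals for the catalytic subunit gene Psmb5 and the base chaperone gene Psmd9. The Psme4 window also held the antioxidant letters, 7 bases before the start site and apart from the ETS letters.
Psmc1, chr12:100110148-100110201, plus strand: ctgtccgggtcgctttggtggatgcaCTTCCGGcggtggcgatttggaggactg
Psmc2, chr5:21785165-21785223, plus strand: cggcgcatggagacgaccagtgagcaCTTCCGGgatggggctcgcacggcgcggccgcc
Psmd2, chr16:20651600-20651651, plus strand: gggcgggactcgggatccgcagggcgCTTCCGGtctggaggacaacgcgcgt
Psmd4, chr3:95042707-95042765, minus strand: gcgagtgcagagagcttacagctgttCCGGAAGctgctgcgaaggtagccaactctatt
Psmd6, chr14:14120958-14121016, minus strand: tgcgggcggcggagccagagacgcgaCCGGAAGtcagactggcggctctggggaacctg
Psme4, chr11:30771696-30771754, plus strand: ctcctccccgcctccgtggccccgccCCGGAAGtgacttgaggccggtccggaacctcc
Psmb5, chr14:54618008-54618068, minus strand: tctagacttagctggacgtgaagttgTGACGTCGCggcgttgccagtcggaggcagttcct
Psmd9, chr5:123228133-123228189, plus strand: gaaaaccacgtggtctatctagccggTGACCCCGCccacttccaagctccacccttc

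In Tg-RKIP against FVB, the proteasome genes did not move as a block. Of the 47 genes tested, 19 rose, 19 fell and 9 did not pass the threshold of an adjusted p under 0.05 in edgeR's quasi-likelihood test on TMM-normalized gene counts. Over all 15504 genes tested, 73.9% passed the threshold, made up of 36.8% that rose and 37.1% that fell. The median log2 fold change was −0.03 for the proteasome genes and 0.01 for all genes. The 31 subunits of both particles ranged from −0.35 for Psma4 to 0.56 for Psmd8 (SD over genes 0.222). When a fold of at least 1.5 was tested, 0 of the 47 genes were higher and 2 were lower, Psme4 and Psme2b, compared with 23.6% of all genes in either direction, and 11460 genes in all passed the threshold without that fold.

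The direction of many subunits depended on the scale. Scaling to library size alone moved the median of all genes by 0.38 on the log2 scale, and the split of the proteasome genes became 40 higher and 3 lower, where 62.6% and 17.1% of all genes were called. With limma on log2(TPM + 0.1), the median of all genes was 0.43 and the split 39 higher and 4 lower of 46, where 66.3% and 14.6% of all genes were called. Measured from the median of all genes, the median of the proteasome genes was −0.04, −0.04 and −0.03 on these 3 scales. Under all 5 scalings used, 19 genes remained higher (37.9% of all genes) and 3 remained lower (14%). The 3 genes were the activator genes Psme1, Psme2b and Psme4.

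**Figure D1:**
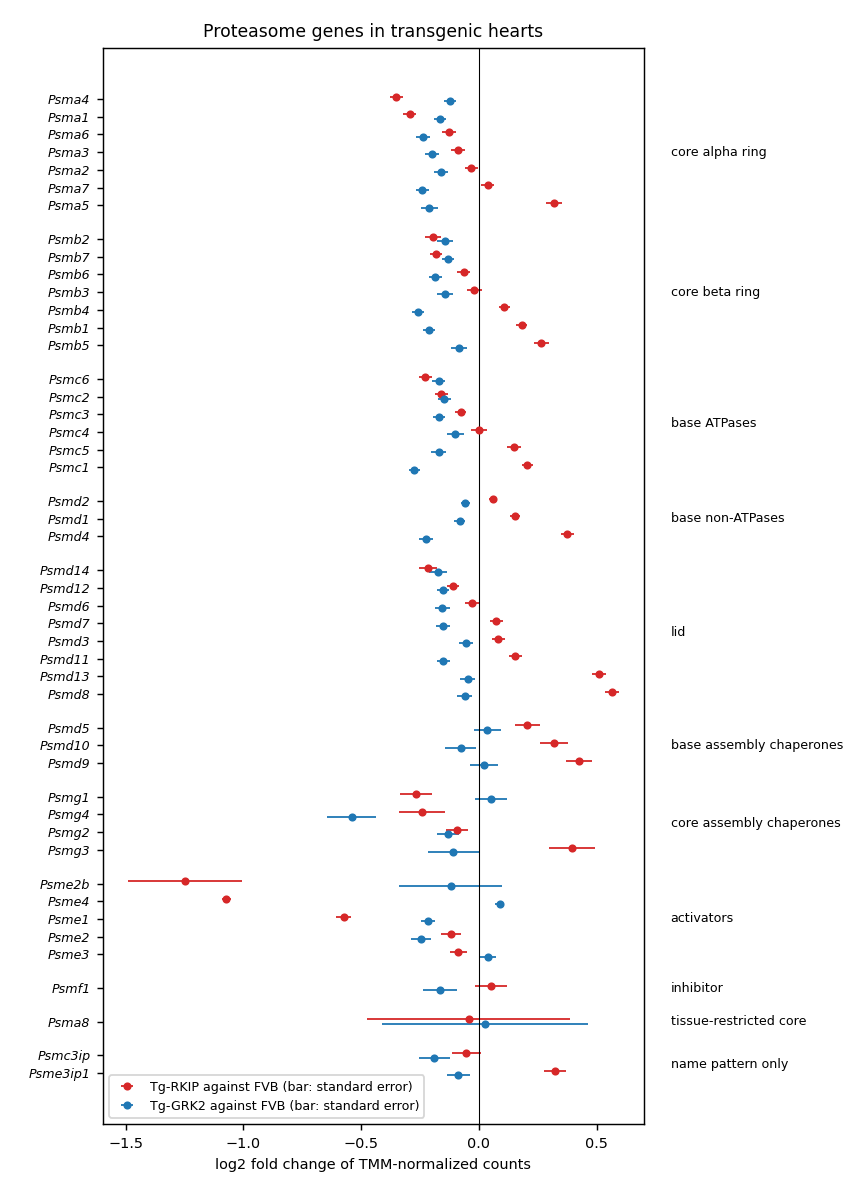
Log2 fold change of TMM-normalized counts (horizontal axis) of the 47 tested proteasome genes, grouped by role, for Tg-RKIP (red) and the hearts labelled Tg-GRK2 (blue) against FVB; points are edgeR estimates and bars standard errors. Red points spread from −1.25 to 0.56, and blue points of the core and regulatory particle lie between −0.27 and −0.05.

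In the alpha ring of the core particle, which gates the entry to the barrel, 1 of 7 genes rose and 4 fell in Tg-RKIP. Psma4 had 73.6, 75.5 and 77 normalized CPM in Tg-RKIP, against 95.3, 98.3 and 94.4 in FVB. The Tg-RKIP hearts were thus all below the FVB hearts, with a log2 fold change of −0.35 (SE 0.027, adjusted p = 1.05e-10 in edgeR), although on the scale of library size alone it was 0.02 with an adjusted p of 0.3995. Psma5, another ring member, went the other way, with 72.5, 76.1 and 79.4 in Tg-RKIP and 62.1, 61.9 and 58.8 in FVB (log2 fold change 0.32, SE 0.034, edgeR adjusted p = 2.44e-08). Psma1 fell by 0.29, Psma6 by 0.13 and Psma3 by 0.09 on the log2 scale. These genes were above FVB on the scale of library size alone, by 0.081, 0.25 and 0.29, and the ring held 6 higher and 0 lower genes.

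In the beta ring, 3 of 7 genes rose and 3 fell. Psmb5, the chymotrypsin-like catalytic subunit, was at 75.4, 72.8 and 74.3 normalized CPM in Tg-RKIP and 59.8, 64.2 and 60.9 in FVB. It rose by a log2 fold change of 0.26 (SE 0.032, edgeR adjusted p = 1.68e-07), with no overlap of the groups. The other catalytic subunits did not share this direction on the TMM scale: Psmb6, caspase-like, fell by 0.06 on the log2 scale and Psmb7, trypsin-like, fell by 0.18, while both were above FVB by 0.31 and 0.19 when scaled to library size alone. Psmb1 rose by 0.18 and Psmb4 by 0.11.

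In the base of the regulatory particle, 2 of 6 ATPase genes rose and 3 fell. Psmc1 rose by 0.21 and Psmc5 by 0.15, and Psmc6 fell by 0.23, Psmc2 by 0.16 and Psmc3 by 0.08 on the log2 scale. All 6 ATPase genes were higher on the scale of library size alone, with Psmc6 at 0.15, Psmc2 at 0.22 and Psmc3 at 0.30. The 3 non-ATPase genes of the base all rose. Psmd4, a receptor for ubiquitin chains, was at 109, 106 and 109.7 normalized CPM in Tg-RKIP and 86.0, 81.0 and 83.1 in FVB, a log2 fold change of 0.38 (SE 0.027, edgeR adjusted p = 4.19e-11). When only its most abundant transcript was tested, the log2 fold change of Psmd4 was 0.08. The large scaffold genes Psmd1 and Psmd2 rose by 0.15 and 0.06, and on its most abundant transcript alone Psmd2 was at −0.062.

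The lid held the subunits with the largest rise, and 5 of its 8 genes rose and 2 fell. Psmd8 (chr7:28873613-28880126 on GRCm39) was at 109, 113 and 115 normalized CPM in Tg-RKIP, 72.4, 75.3 and 71.5 in the hearts labelled Tg-GRK2 and 73.7, 76.6 and 78.1 in FVB. The 3 Tg-RKIP hearts lay above all other hearts, and the other groups overlapped (Tg-RKIP against FVB, log2 fold change 0.56, SE 0.029, edgeR adjusted p = 1.28e-13). Psmd13 showed the same order, with 88.9, 89.2 and 91.2 in Tg-RKIP and 62.6, 63.7 and 62.8 in FVB (log2 fold change 0.51, SE 0.029, edgeR adjusted p = 7.2e-13). Part of the Psmd13 reads, 36.3% in Tg-RKIP and 38.9% in FVB, were assigned to a transcript marked for nonsense-mediated decay, and 342 bases of its exons are shared with the antisense gene Sirt3. Psmd14, the deubiquitinase of the lid, fell by 0.22 on the log2 scale (edgeR adjusted p = 2.75e-05) but was higher by 0.16 when scaled to library size alone.

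On the TMM scale, 10 genes of the regulatory particle were higher and 5 lower of 17, and 4 of the core particle were higher and 7 lower of 14. Scaled to library size alone, 17 of 17 and 13 of 14 were higher and 0 lower, and with limma on log2(TPM + 0.1) 16 were higher and 1 lower of 17 and 13 higher and 0 lower of 14. The difference between the particles in these counts was not tested. Of the 9 regulatory particle genes with the ETS letters described above, 5 rose and 3 fell, and of the 5 matched genes without them 3 rose and 1 fell. The summed level of the core particle was 2467, 2409 and 2466 TPM in Tg-RKIP, against 1849, 1876 and 1884 in FVB. The means thus had a ratio of 1.31 ± 0.022 (SD propagated from the SDs of both groups). The regulatory particle summed to 2118, 2098 and 2130 TPM in Tg-RKIP and 1478, 1457 and 1453 in FVB, a ratio of 1.45 ± 0.017 (SD propagated likewise). TPM are shares of a whole in which mitochondrial transcripts took 20.4% to 21.0% in Tg-RKIP and 37.8% to 38.3% in FVB. Without the mitochondrial genes the ratios were 1.02 and 1.13, and for summed TMM-normalized counts they were 0.974 and 1.06.

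A quantity that does not depend on the scaling between libraries is the regulatory particle as a percentage of the core particle within a library. In summed TPM it was 85.9%, 87.1% and 86.4% in Tg-RKIP, 80.0%, 82.7% and 80.2% in the hearts labelled Tg-GRK2 and 79.9%, 77.7% and 77.1% in FVB. The Tg-RKIP libraries were above all others, and each heart labelled Tg-GRK2 was above each FVB library, the nearest pair by less than the SD of either group. Summed normalized counts gave the same order of the means, at 145% ± 2.04, 137% ± 2.09 and 133% ± 1.75 (SD, n = 3).

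**Figure D2:**
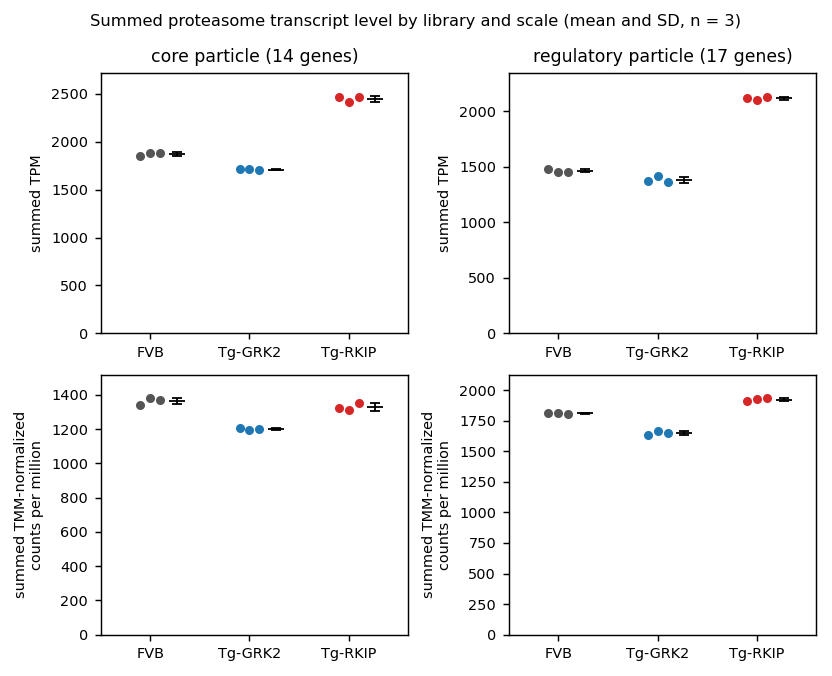
Summed level of the 14 core and 17 regulatory particle genes in each library (points), with mean and SD (n = 3), in TPM (top row) and TMM-normalized CPM (bottom row); vertical axes start at 0. Tg-RKIP stands above FVB in TPM, by 1.31 and 1.45, and close to FVB in normalized counts, by 0.974 and 1.06.

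Levels differed between subunits of the same particle although the assembled complex holds each of them in equal number. In FVB the core particle genes ranged from 67.6 TPM for Psma5 to 247 TPM for Psmb4, and the regulatory particle genes from 53.8 TPM for Psmd14 to 188 TPM for Psmc3. The value of Psmb4 rests largely on short retained-intron transcripts, since its protein-coding transcript took 36.8% of its reads in FVB, 37.2% in Tg-RKIP and 34.0% in the hearts labelled Tg-GRK2. On its most abundant transcript alone, Psmb4 had a log2 fold change of −0.02 in Tg-RKIP. Psmc3 shares 215 exon bases with the antisense gene Slc39a13. Its shorter protein-coding transcript of 1419 bases took 28.5% of the gene's reads in Tg-RKIP and 10.8% in FVB, but the reads of that transcript were 1056, 367 and 91 in the FVB hearts, so this share varied widely within a group.

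All 3 chaperone genes that assemble the base rose in Tg-RKIP. Psmd9 was at 19.1, 19.4 and 19.4 normalized CPM in Tg-RKIP and 14.4, 15.2 and 13.4 in FVB (log2 fold change 0.43, SE 0.055, edgeR adjusted p = 4.54e-07). Psmd10, also known as gankyrin, rose by 0.32 and Psmd5 by 0.21. Of the 4 genes for chaperones of the core particle, Psmg3 rose by 0.40, Psmg1 and Psmg4 fell by 0.27 and 0.24, and Psmg2 had a log2 fold change of −0.09 (edgeR adjusted p = 0.072). Psmg1, Psmg2 and Psmg4 were above FVB by 0.11, 0.28 and 0.13 on the scale of library size alone.

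All 5 activator genes fell in Tg-RKIP on the TMM scale, although Psme2 and Psme3 were above FVB when scaled to library size alone. The values of Psme2 and Psme3 lay within the range of the core and regulatory particle subunits. Psme4 (chr11:30721726-30830361 on GRCm39) encodes PA200, a cap that opens the core particle without ubiquitin and is best known for the turnover of acetylated histones. It was at 204, 194 and 198 normalized CPM in Tg-RKIP, 447, 441 and 442 in the hearts labelled Tg-GRK2 and 419, 412 and 421 in FVB. No group overlapped another. The log2 fold change of Tg-RKIP against FVB was −1.07 (SE 0.020, edgeR adjusted p = 1.17e-21), and it ranged from −1.11 to −0.63 over 21 alternatives. In summed TPM, Psme4 amounted to 2.33% ± 0.0697 of the core particle in Tg-RKIP, 5.77% ± 0.0779 in the hearts labelled Tg-GRK2 and 4.75% ± 0.0715 in FVB (exact two-sided permutation test, p = 0.1 for each pair of groups, the smallest value that 3 against 3 can give).

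Psme4 also has the longest transcript of all proteasome genes, 6491 bases, and length moved with the fold change over all genes. Among the 2346 tested genes whose most abundant transcript had 5000 bases or more, the median log2 fold change of Tg-RKIP against FVB was −0.29, and 8.31% were below −1. The median was 0.12 for transcripts under 1000 bases and 0.16 for those from 1000 to under 1500 bases, where 33 proteasome genes lie. The medians of the 14 and 19 proteasome genes in these 2 classes were −0.04 and −0.03, thus below those of all genes of like length. The part of length in the Psme4 value and in these medians was not tested.

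**Figure D3:**
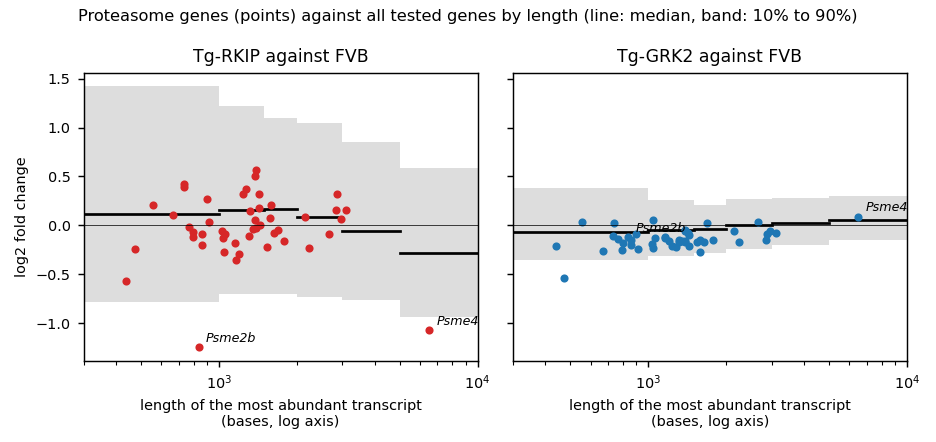
Log2 fold change (vertical axis) against the length of the most abundant transcript (horizontal log axis, in bases) for the 47 tested proteasome genes (points); the black lines give the median and the grey bands the range from the 10% to the 90% point of all tested genes in 6 length classes, the last of which is open-ended. Psme4, at 6491 bases, lies below the band of its class in the left panel (Tg-RKIP), as does Psme2b, and inside it in the right panel (hearts labelled Tg-GRK2).

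Psme1 encodes the alpha subunit of PA28, the activator linked to antigen processing. It was at 89.4, 88.2 and 95.5 normalized CPM in Tg-RKIP, 111, 121 and 117 in the hearts labelled Tg-GRK2 and 135, 135 and 136 in FVB. On this scale the Tg-RKIP hearts were lowest and the FVB hearts highest, without overlap. In TPM the transgenic groups overlapped, with 275, 267 and 288 in Tg-RKIP and 262, 291 and 267 in the hearts labelled Tg-GRK2. FVB had 305, 292 and 309 TPM. The log2 fold change of Tg-RKIP against FVB was −0.57 (SE 0.031, edgeR adjusted p = 3.02e-13) and −0.20 when scaled to library size alone. The reads of Psme1 were spread over 13 transcripts, of which the protein-coding ones took 62.7% in Tg-RKIP and 68.6% in FVB.

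Psme2, the beta subunit of PA28, fell by 0.12 on the log2 scale (edgeR adjusted p = 0.0126), and Psme3, the nuclear PA28 gamma, by 0.09. On the scale of library size alone their log2 fold changes were 0.26 and 0.29. In TPM, Psme1 amounted to 11.3% of the core particle in Tg-RKIP and 16.2% in FVB. Psme2 amounted to 4.72% and 5.30%, and Psme3 to 2.03% and 2.17%. The exact two-sided permutation test of Tg-RKIP against FVB gave p = 0.1, 0.1 and 0.2, before adjustment. Psme2b is a copy of Psme2 and had 71, 57 and 21 reads in Tg-RKIP and 90, 92 and 92 in FVB, with a log2 fold change of −1.25. Since reads of near-identical copies can be split by the counting, and without Tg-RKIP replicate 3 or replicate 1 the values lay between −1.67 and −0.95, its level is uncertain. Psmf1, an inhibitor of the core particle, did not pass the test (log2 fold change 0.05, edgeR adjusted p = 0.511).

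**Figure D4:**
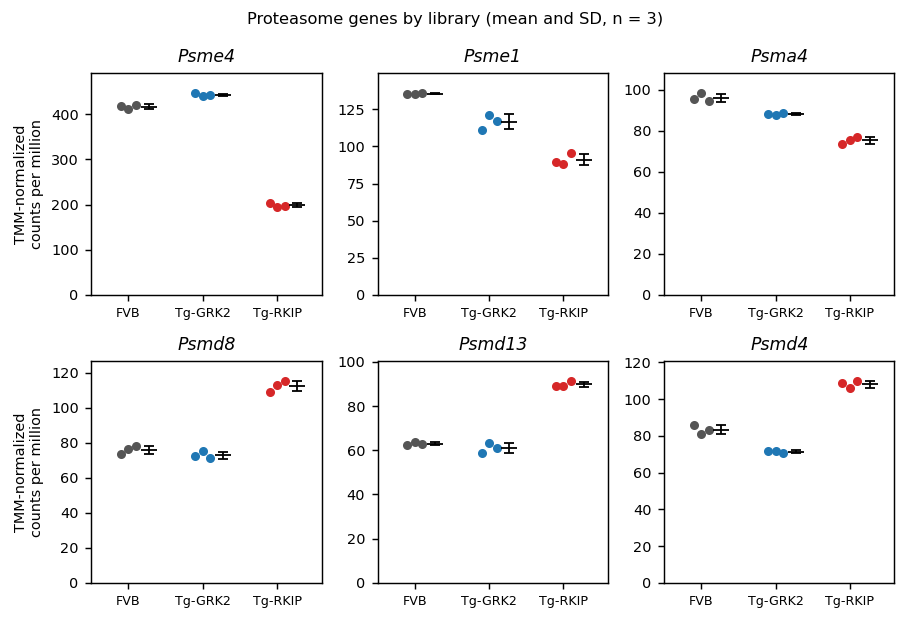
TMM-normalized CPM (vertical axes, from 0) in each heart of the 3 groups for the activators Psme4 and Psme1, the alpha ring gene Psma4, the lid genes Psmd8 and Psmd13 and the ubiquitin receptor Psmd4; black marks are mean and SD (n = 3). Tg-RKIP is lowest for the activators and Psma4 and highest for the other genes, for example 109 to 115 for Psmd8 against 73.7 to 78.1 in FVB.

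The hearts labelled Tg-GRK2 differed from FVB by small steps, mostly in one direction. Of the 47 genes tested, 32 fell and 1 rose, while 24.5% of all genes passed, 12.2% lower and 12.2% higher. The median log2 fold change was −0.15 for the proteasome genes and −0.00 for all genes. Of the core particle, 13 of 14 genes fell and 0 rose. Of the regulatory particle, 14 of 17 fell and 0 rose. The 31 subunits lay between −0.27 and −0.05, with an SD over genes of 0.060. No gene of the 47 passed a tested fold of 1.5, which 1% of all genes did. Under all 5 scalings 20 genes remained lower and 1 higher, where 5.65% and 10.3% of all genes did. With limma on log2(TPM + 0.1), 20 were lower and 2 higher of 46, where 6.05% and 13.1% of all genes were called. On that scale 12 of the 14 core particle genes were lower, but only 5 of the 17 regulatory particle genes. Scaled to library size alone, 13 and 12 were lower. No gene of either particle was higher on these scales.

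The lowest subunit was the ATPase gene Psmc1, with 115, 114 and 111 normalized CPM in the hearts labelled Tg-GRK2 and 137, 138 and 136 in FVB (log2 fold change −0.27, SE 0.024, edgeR adjusted p = 1.48e-08). The beta ring gene Psmb4 followed at −0.26 and the alpha ring gene Psma7 at −0.24. Of the catalytic subunits, Psmb6 fell by 0.18 and Psmb7 by 0.13, and Psmb5 had a log2 fold change of −0.08 (edgeR adjusted p = 0.0745). The largest difference of all was that of the core chaperone gene Psmg4, with 5.00, 5.02 and 4.53 normalized CPM against 6.28, 7.57 and 7.23 in FVB (log2 fold change −0.54, SE 0.104, edgeR adjusted p = 0.000505). The base chaperone genes Psmd5, Psmd9 and Psmd10 did not pass the test, with log2 fold changes of 0.04, 0.02 and −0.08.

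On the TMM scale, Psme4 was the gene that rose, by a log2 fold change of 0.09 (SE 0.019, edgeR adjusted p = 0.00175). It had 441 to 447 normalized CPM, and 412 to 421 in FVB. Psme1 fell by 0.22 and Psme2 by 0.25, and Psme3 had a log2 fold change of 0.04 (edgeR adjusted p = 0.504). With limma on log2(TPM + 0.1), both Psme3 and Psme4 were higher, by 0.16 (limma adjusted p = 0.0333) and 0.15 (limma adjusted p = 0.00568). Scaled to library size alone, Psme3 was at 0.05 and did not pass the threshold. Transcript length moved with these differences too. Over all genes the median log2 fold change was −0.07 under 1000 bases, −0.05 from 1000 to under 1500 bases and 0.05 at 5000 bases or more. The medians of the 14 and 19 proteasome genes in the first 2 of these classes were −0.16 each. The part of length was not tested.

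Psmb8, Psmb9 and Psmb10 replace Psmb5, Psmb6 and Psmb7 in the immunoproteasome, and their ratios within a library do not depend on scaling between libraries. In TPM, Psmb8 amounted to 24.4%, 21.8% and 23.0% of Psmb5 in Tg-RKIP, 17.4%, 19.9% and 18.4% in the hearts labelled Tg-GRK2 and 32.7%, 30.6% and 33.3% in FVB. Protein-coding transcripts took only 22.9% of the Psmb8 reads in Tg-RKIP, 31.0% in the hearts labelled Tg-GRK2 and 25.4% in FVB. For Psmb5 this share was 100% in each group, so the ratio rests largely on Psmb8 transcripts not marked as protein-coding. For Psmb9 and Psmb10 the shares were 60.7% to 64.8% and 72.3% to 80.6%. Psmb9 amounted to 11.8% ± 0.353 of Psmb6 in Tg-RKIP (SD, n = 3), 7.51% ± 0.565 in the hearts labelled Tg-GRK2 and 14.8% ± 1.36 in FVB. For both pairs the order was FVB, Tg-RKIP, Tg-GRK2 without overlap. Psmb10 over Psmb7 had another order, with 44.1% ± 1.36 in Tg-RKIP, 28.8% ± 1.11 in the hearts labelled Tg-GRK2 and 33.8% ± 1.26 in FVB. Each pair of groups gave p = 0.1 for each ratio, before adjustment, in the exact two-sided permutation test, the smallest value the design allows. The sum of 8 interferon response markers was 89.2 to 90.7 TPM in Tg-RKIP, 61.6 to 63.0 in the hearts labelled Tg-GRK2 and 90.9 to 91.7 in FVB, with all 8 genes detected in every group, and its part in these ratios was not tested. In the hearts labelled Tg-GRK2, Psmb8 fell by 0.98 and Psmb9 by 1.00 on the log2 scale against FVB. In Tg-RKIP, Psmb8 fell by 0.27 and Psmb9 by 0.41, and Psmb10 rose by 0.10. Scaled to library size alone, Psmb8 was at 0.10, Psmb9 at −0.03 and Psmb10 at 0.48. In TPM, Psmb8 was at 35.2 in Tg-RKIP and 30.5 in FVB, and Psmb5 at 153 and 94.7. Psmb9 was at 23.7 and 23.0, and Psmb6 at 200 and 156.

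**Figure D5:**
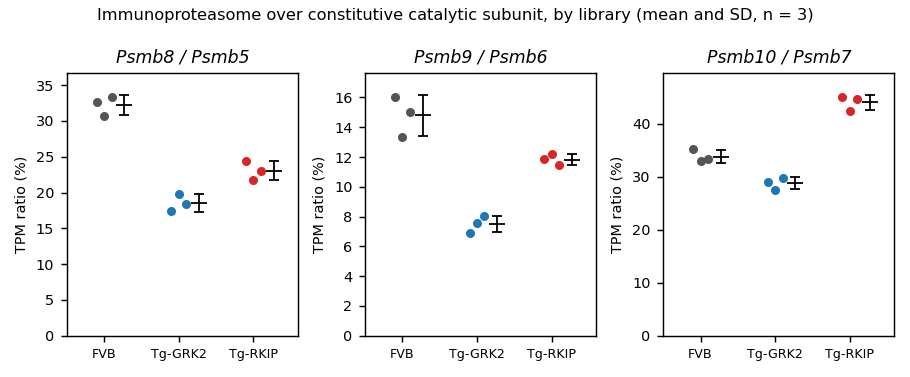
TPM of each immunoproteasome subunit as a percentage of the constitutive subunit it replaces (vertical axes, from 0) in each library, with mean and SD (n = 3). FVB is highest for Psmb8 over Psmb5 and Psmb9 over Psmb6, Tg-RKIP is highest for Psmb10 over Psmb7 at 44.1%, and the hearts labelled Tg-GRK2 are lowest in all 3 panels.

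In the direct comparison of Tg-RKIP with the hearts labelled Tg-GRK2, 31 of the 47 genes were higher and 7 lower, where 74.5% of all genes were called, 37.9% higher and 36.6% lower. The median log2 fold change was 0.13 for the proteasome genes and 0.02 for all genes. On the scale of library size alone, the split was 42 higher and 2 lower, where 62% and 18.4% of all genes were called, and with limma on log2(TPM + 0.1) it was 41 and 2 of 46, where 63.3% and 17% were called. A tested fold of 1.5 left 0 higher and 2 lower, compared with 24.9% of all genes in either direction. The genes with the largest differences were Psmd8 at 0.62, Psmd4 at 0.60, Psmd13 at 0.56 and Psma5 at 0.53, and at the other end Psme4 at −1.16, Psme2b at −1.13, Psme1 at −0.36 and Psmg1 at −0.32. The values of Psme1 and Psmg1 were 0.00 and 0.04 when scaled to library size alone. All of these values share the Tg-RKIP libraries with the comparison against FVB and are not independent of it.

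The tissue-restricted genes were near the limit of detection. Psma8, a testis alpha subunit, had 6 to 26 reads per library and did not differ past the threshold, and Psmb11, a thymus beta subunit, had 0 to 2 reads and was not tested. The genes that share only the name pattern were Psmc3ip, a recombination factor, with a log2 fold change of −0.05 in Tg-RKIP (edgeR adjusted p = 0.44), and Psme3ip1, a partner of PA28 gamma, which rose by 0.32. Psmc3ip shares 385 exon bases with the antisense gene Mlx, so its reads cannot be assigned without strand.

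Other genes of the pathway were counted from lists by function. Beside all list counts below stand the shares over all genes in Tg-RKIP against FVB: 36.8% rose and 37.1% fell. Scaled to library size alone, 62.6% were higher and 17.1% lower. In the hearts labelled Tg-GRK2, 12.2% of all genes rose and 12.2% fell. The list counts were not tested against these shares. Of 9 tested proteasome subunits and factors without a Psm name, 4 rose and 3 fell in Tg-RKIP, or 7 and 1 when scaled to library size alone, and 0 rose and 6 fell in the hearts labelled Tg-GRK2. Pomp, which encodes the maturation factor of the core particle, was at 108, 111 and 110.1 normalized CPM in Tg-RKIP, 74.4, 74.8 and 77.5 in the hearts labelled Tg-GRK2 and 83.1, 85.2 and 86.7 in FVB (Tg-RKIP against FVB, log2 fold change 0.37, SE 0.026, edgeR adjusted p = 3.07e-11). It thus stood highest in Tg-RKIP and lowest in the hearts labelled Tg-GRK2, without overlap. Adrm1, a ubiquitin receptor of the base, rose by 0.15 in Tg-RKIP, and Sem1, a small lid subunit, had a log2 fold change of 0.08 (edgeR adjusted p = 0.09). Ecpas, which links core and regulatory particle, fell by 1.03, and Zfand5, a proteasome activator of muscle, by 0.42. Scaled to library size alone, Ecpas was at −0.66 and Zfand5 at −0.043 with an adjusted p of 0.112, and with limma on log2(TPM + 0.1) Ecpas was at −0.35. The most abundant transcript of Ecpas has 7045 bases and falls in the longest class described for Psme4, and the part of length was not tested.

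Of 10 regulators of proteasome genes, 3 rose and 2 fell in Tg-RKIP, and 8 were higher and 1 lower when scaled to library size alone. Nfe2l1, which encodes NRF1, the main transcription factor of proteasome genes, had 488 to 500.1 normalized CPM in Tg-RKIP and 493 to 505 in FVB (log2 fold change −0.01, edgeR adjusted p = 0.473), 0.36 when scaled to library size alone and −0.56 on its most abundant transcript alone. Its small MAF partners were higher, Maff by 1.32 and Mafk by 0.96, and Ddi2, the protease that activates NRF1, fell by 0.47, or by 0.098 when scaled to library size alone. On its most abundant transcript alone, Maff had a log2 fold change of 0.83 with an adjusted p of 0.1556.

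Of the 4 ubiquitin genes, 2 rose and 1 fell in Tg-RKIP, with Ubb at 0.34 and Rps27a at 0.33. Of 16 genes of ubiquitin activation and conjugation, 3 rose and 8 fell, among them the conjugating enzymes Cdc34 by 0.37 and Ube2d3 by 0.34. Of 12 ubiquitin ligases of muscle, 3 rose and 8 fell, with a median log2 fold change of −0.36, and scaled to library size alone 4 were higher and 4 lower. The atrophy ligases Fbxo32 and Trim63 fell by 0.34 and 0.63, Trim55 by 0.90 and the giant ligase Huwe1, with a transcript of 14168 bases, by 1.10. Huwe1 was at −0.73 on the scale of library size alone, and with limma on log2(TPM + 0.1) at −0.41. Its transcript also falls in the longest class described for Psme4, and the part of length was not tested. Cdc34, Ube2d3 and Fbxo32 had log2 fold changes of 0.00, 0.03 and 0.03 when scaled to library size alone. Of 11 shuttle and segregase genes, 5 rose and 3 fell, with Ubxn1 at 0.50 and Ddi2 at −0.47. Scaled to library size alone, 10 of the conjugation genes were higher and 0 lower, 10 of the shuttle and segregase genes higher and 1 lower, and 4 of the ubiquitin genes higher and 0 lower. Of 16 autophagy genes, 10 rose and 6 fell, and the largest rises were those of the cargo receptor Sqstm1 at 0.86 and the lysosomal protease Ctsd at 0.65. On the scale of library size alone 15 autophagy genes were higher and 0 lower.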

How the data were processed

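RNA from 9 hearts, 3 per genotype, was sequenced in single reads of 50 bases. The authors deposited raw read counts and TPM per transcript for 127558 transcripts, and GRCm39 is named in the submitters' processing notes. The aligner, the counter and the use of strand are not given in the sources used here. The deposited TPM equalled values recomputed from counts and lengths to within 5.498e-06. Counts and TPM were summed by gene name. Gene counts were tested with edgeR 4.0.16 (R 4.3.3): filterByExpr, TMM normalization, quasi-likelihood F-test over all 9 libraries with a mean per group, and Benjamini-Hochberg adjustment over 15504 genes, at 0.05. Ratios within libraries were compared with exact permutation tests (scipy 1.17.1). The scripts were tested on simulated data.

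The alternatives were DESeq2 1.42.0, scaling to library size with or without the 37 mitochondrial genes, limma 3.58.1 on log2(TPM + 0.1) and log2(TPM + 1), other filters, a tested fold of 1.5, the most abundant transcript per gene, the replicate number as a block and leaving out each library. Depth was 25458108 to 33447654 reads per library, and precision is limited by 3 hearts per group. The biological coefficient of variation, the spread between libraries beyond counting noise, was small. It was 1.89% in Tg-RKIP, 3.68% in the hearts labelled Tg-GRK2 and 2.12% in FVB. Squared differences between libraries of a group were 1.37 to 1.56 times those of counting noise (median over genes with a mean of at least 100 reads). The edgeR adjusted p-values, and the counts of genes that passed the threshold, rest on this small spread. The deviations of hearts labelled with the same number correlated at −0.037 to 0.056, and those of hearts with other numbers at −0.056 to 0.022. The same-number values were all positive between Tg-RKIP and the hearts labelled Tg-GRK2. They were all negative between the hearts labelled Tg-GRK2 and FVB. The hearts were not paired.

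The proteasome genes and all lists were chosen with earlier results of these data known. By rule, the text names for each comparison the 4 highest and 4 lowest log2 fold changes, the catalytic, activator, inhibitor, chaperone and tissue-restricted genes, the extremes of level, and from each pathway list the 2 largest changes with Pomp, Adrm1, Sem1, Nfe2l1, Fbxo32 and Trim63. Psma1, Psma3, Psma6, Psma7, Psmb1, Psmc2, Psmc5, Psmc6, Psmd1, Psmd2, Psmd6 and Psme3ip1 were chosen after their values were seen, where the rule did not name them. Promoter windows were taken from RefSeq on GRCm38.p6, and gene positions on GRCm39 from the deposited table.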

Additional observations from a re-analysis of the deposited data

How the results depend on the processing

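The proteasome genes called in Tg-RKIP against FVB, 19 higher and 19 lower, were 40 and 3 when scaled to library size alone, 30 and 5 without mitochondrial genes in the library size, and 39 and 4 with limma on log2(TPM + 0.1) and on log2(TPM + 1). With a minimum mean of 100 reads 12 were lower, and with a tested fold of 1.5 the counts were 0 and 2. For the hearts labelled Tg-GRK2 against FVB, 1 higher and 32 lower, the counts were 2 and 20 with limma at either pseudocount, 0 and 0 with the tested fold, and 16 lower on the most abundant transcript. For Tg-RKIP against the hearts labelled Tg-GRK2, 31 higher and 7 lower, the lower count was 2 with library size alone, 3 without mitochondrial genes and 2 with limma at either pseudocount, and the tested fold gave 0 and 2. Leaving out 1 library at a time gave 17 to 19 higher and 16 to 19 lower, 1 higher and 27 to 32 lower, and 29 to 31 higher and 7 to 8 lower. With the replicate number as a block, the counts were 19 and 18, 1 and 30, and 31 and 7, and hearts with the same number correlated best in 8 of 18 cases.

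The summed core particle ratio of Tg-RKIP to FVB, 1.31 in TPM, was 0.974 in summed TMM-normalized counts and 1.02 in TPM without mitochondrial genes. The core ratio of the hearts labelled Tg-GRK2 to FVB was 0.882 in summed normalized counts, and that of Tg-RKIP to Tg-GRK2 was 1.10 there and 1.12 without mitochondrial genes. For the regulatory particle, the ratio of Tg-RKIP to FVB, 1.45, was 1.06 in summed normalized counts, 1.13 without mitochondrial genes, 1.41 on the most abundant transcripts and 1.42 as the median over subunits. The other regulatory ratios were 0.911 in summed normalized counts for Tg-GRK2 to FVB, and 1.17 there and 1.20 without mitochondrial genes for Tg-RKIP to Tg-GRK2. Of 2301 values of 62 named genes under the alternatives, 107 turned sign, 82 of them with the threshold passed on either scale and 25 with it passed on neither. Of the others, 182 no longer passed the threshold and 25 newly passed it. The 25 that passed on neither were 10 values in Tg-RKIP against FVB, of Psmf1, Psmg2, Psmc3ip, Psma8 and Nfe2l1, and 15 in the hearts labelled Tg-GRK2 against FVB, of Psmg3, Psmd9, Psmd13, Psmd5, Psmg1, Psmd10 and Psma8. Among them Psma8 in Tg-RKIP was 0.33 when scaled to library size alone, and with limma on log2(TPM + 0.1) Psmd13 and Psmd5 were 0.016 and −0.052 in the hearts labelled Tg-GRK2. The causes were not tested.

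Scaled to library size alone, these log2 fold changes turned sign with a call on either scale: Psma4 0.025, Psmg4 0.13, Psme2 0.26, Psme3 0.29, Psmg1 0.11, Psmb6 0.31, Psmb7 0.19, Psmb8 0.10, Psmg2 0.28, Psmc3ip 0.32, Psmc3 0.30, Psmd14 0.16, Nfe2l1 0.36, Fbxo32 0.032, Cdc34 0.0039, Ube2d3 0.031, Psma1 0.081, Psma3 0.29, Psma6 0.25, Psmc2 0.22 and Psmc6 0.15 in Tg-RKIP against FVB, and Psme1 0.0046 and Psmg1 0.043 in Tg-RKIP against Tg-GRK2. With limma on log2(TPM + 0.1), these log2 fold changes turned sign with a call on either scale: Psma4 0.041, Psmg4 0.16, Psme2 0.22, Psme3 0.29, Psmg1 0.14, Psmb6 0.36, Psmb7 0.24, Psmb8 0.20, Psmb9 0.040, Psmg2 0.33, Psmc3ip 0.36, Psmc3 0.33, Psmd14 0.28, Nfe2l1 0.50, Fbxo32 0.074, Zfand5 0.021, Cdc34 0.032, Psma1 0.10, Psma3 0.37, Psma6 0.24 and Psmc2 0.26 in Tg-RKIP against FVB, and Psme1 0.017 and Psmg1 0.062 in Tg-RKIP against Tg-GRK2. With limma on log2(TPM + 1), these log2 fold changes turned sign with a call on either scale: Psma4 0.040, Psmg4 0.16, Psme2 0.22, Psme3 0.28, Psmg1 0.14, Psmb6 0.36, Psmb7 0.24, Psmb8 0.20, Psmb9 0.039, Psmg2 0.32, Psmc3ip 0.34, Psmc3 0.32, Psmd14 0.28, Nfe2l1 0.50, Fbxo32 0.072, Zfand5 0.021, Cdc34 0.031, Psma1 0.10, Psma3 0.37, Psma6 0.24 and Psmc2 0.26 in Tg-RKIP against FVB, and Psme1 0.017 and Psmg1 0.059 in Tg-RKIP against Tg-GRK2. On the most abundant transcript, these log2 fold changes turned sign with a call on either scale: Psmb4 −0.016, Psme2 0.048, Psmb10 −0.059 and Psmd2 −0.062 in Tg-RKIP against FVB, and Psmc3ip 0.013 in Tg-GRK2 against FVB. Scaled to library size without mitochondrial genes, these log2 fold changes turned sign with a call on either scale: Psme2 0.057, Psme3 0.089, Psmb6 0.11, Psmc3 0.097, Nfe2l1 0.16, Psma3 0.086, Psma6 0.048 and Psmc2 0.016 in Tg-RKIP against FVB. With 3 hearts per group, genes with few reads such as Psma8, Psmb11 and Psme2b are measured least precisely.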
